A study of Mus musculus with 15 samples.

Results

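The 8 genes described here, Neurog1, Neurog2, Neurod1, Neurod4, Atoh1, Ptf1a, Nhlh1 and Nhlh2, encode basic helix-loop-helix transcription factors of the developing nervous system. They were taken by name from 30534 features measured in sections of mouse embryos, and all 8 had a column in the deposited tables. Each section was overlaid with crossing sets of microfluidic channels that deliver DNA barcodes, so that every crossing, a pixel, reports the transcripts captured below it. The 11 transcript libraries fall into 6 groups by embryonic day (E) and channel width: E10 at 50 µm (3 libraries), E10 at 25 µm (1), E10 at 10 µm (2), E11 at 25 µm (2), E11 at 10 µm (2) and E12 at 50 µm (1). All are frozen embryo sections, with no treatment or allele named. No strain, embryo number or body region is given in the labels. Libraries within a group and between groups may thus differ in the part of the embryo they cover, and p-values measure only the spread between these sections. All libraries use the same grid of 50 by 50 barcodes, so a shared grid position is not a shared cell.

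Proneural factors bind DNA as dimers with the broadly expressed E proteins, at short sequences called E-boxes, and switch dividing neural progenitors towards the neuronal fate. Notch signalling opposes them through Hes repressors, and Id proteins capture their E protein partners. Neurog1, Neurog2, Atoh1 and Ptf1a are typically switched on in progenitors, whereas Neurod1, Neurod4, Nhlh1 and Nhlh2 follow in cells that are leaving division or have become young neurons. The progenitor gene Sox2, which encodes a factor that maintains neural stem cells, and the neuron gene Tubb3, which encodes a neuronal tubulin, serve below as the 2 ends of that path.

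Tissue pixels numbered 829 to 2271 per library and held 1563489 to 11998765 counts, with a median of 843.5 to 11332 counts per pixel. A pixel at any width can hold several cells or parts of cells. Levels are given as CPM, a gene's counts scaled to the library's total over tissue pixels. The second E11 library at 10 µm stood apart: Sox2 was at 6.93 CPM and Tubb3 at 28.1 CPM there, against 32.6 to 241 and 87.8 to 500 CPM in the other 10 libraries. Genes of the nervous system were present in all groups: the summed level of the 9 neuron markers was 1914 to 3126 CPM at E10 and 50 µm, 1639 at E10 and 25 µm, 816 to 921 at E10 and 10 µm, 620 to 835 at E11 and 25 µm, 217 to 507 at E11 and 10 µm and 948 at E12. The 8 progenitor markers summed to 3217 to 4306, 2844, 2638 to 3793, 2393 to 2868, 1020 to 2038 and 1370 CPM in the same order. The 5 liver markers summed to 8.17 to 137 CPM in the E10 libraries and to 58.7 to 3718 in those of E11 and E12, so the sections also differed in the organs they hold. In sums over a section, fewer cells of a type and less RNA per cell cannot be told apart.

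The members differed widely in abundance. Over all libraries Nhlh2, a factor of young neurons, gave 5582 counts, Neurod1 2153, Neurog2 2030, Nhlh1 1174, Neurod4 1117 and Neurog1 597, while Atoh1, the factor of dorsal hindbrain and spinal progenitors, gave 308 and Ptf1a, the factor of inhibitory neuron progenitors and of pancreas, gave 97. Per kilobase of annotated exon, a scaling that assumes that counts grow with transcript length, the median level over 11 libraries was 9.27 CPM per kb for Neurod1, 5.97 for Neurog2, 5.36 for Nhlh2, 4.57 for Nhlh1, 3.69 for Neurog1, 2.30 for Neurod4, 1.40 for Atoh1 and 0.811 for Ptf1a. The highest member by CPM was Nhlh2 in 6 of the 11 libraries, Neurod1 in 3, and Neurog2 and Neurod4 in 1 each, and the 3 E10 libraries at 50 µm gave 1695, 992 and 1688 of the 5582 Nhlh2 counts. All 8 lay below Sox2 (88.9) and Tubb3 (71.2) on the scale per kilobase. Nhlh2 has 5417 annotated exon bases, against 1508 to 3345 in the other 7 members.

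In the GRCm38 annotation (GENCODE M21) Neurog1 lies at chr13:56250478-56252163 on the minus strand, Neurog2 at chr3:127633135-127635631 on the plus strand, Neurod1 at chr2:79452521-79456751 on the minus strand and Neurod4 at chr10:130268152-130280240 on the minus strand. Atoh1 lies at chr6:64729125-64731245 (plus), Ptf1a at chr2:19445663-19447501 (plus), Nhlh1 at chr1:172052292-172057573 (minus) and Nhlh2 at chr3:102010076-102015492 (plus). Neurod1 overlaps the same-strand gene Cerkl and Ptf1a overlaps an antisense gene, so counts of these 2 members may include reads of the neighbour. The same holds for Sox2, which overlaps the same-strand gene Sox2ot, and Tubb3, which overlaps the same-strand gene Gm20388, in all overlap and index values below, and the strand setting of the counting is not given in the sources used here. The deposited tables themselves hold gene names without coordinates.

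Nhlh1, Nhlh2, Neurod1 and Neurod4 shared pixels with each other and with Tubb3 more often than expected, as described further on. For the 3 of these 4 whose promoter window holds an E-box, the sequence before the start site is shown, from RefSeq promoters on GRCm38.p6, read 5′ to 3′ on the strand of the gene and ending before the annotated gene. Capitals mark matches to the general E-box CANNTG, a pattern that reads the same on both strands and includes CAGATG and CATATG. The stretches are chr3:102009895-102010075 (plus) for Nhlh2, chr1:172057597-172057846 (minus) for Nhlh1 and chr2:79456752-79456886 (minus) for Neurod1.
Nhlh2: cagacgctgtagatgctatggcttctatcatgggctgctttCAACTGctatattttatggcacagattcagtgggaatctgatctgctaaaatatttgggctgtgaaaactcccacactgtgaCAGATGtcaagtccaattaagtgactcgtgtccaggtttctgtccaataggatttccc
Nhlh1: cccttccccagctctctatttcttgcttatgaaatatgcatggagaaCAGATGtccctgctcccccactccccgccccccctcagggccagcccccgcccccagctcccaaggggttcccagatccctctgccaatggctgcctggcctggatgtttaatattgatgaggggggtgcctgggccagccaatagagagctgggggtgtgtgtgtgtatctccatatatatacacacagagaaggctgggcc
Neurod1: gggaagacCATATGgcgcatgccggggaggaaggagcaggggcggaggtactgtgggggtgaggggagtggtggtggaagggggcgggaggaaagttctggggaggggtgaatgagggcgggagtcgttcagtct
Nhlh2 has 2 matches and Nhlh1 and Neurod1 have 1 each in the 250 bases before the start site. CAGATG stands before both Nhlh genes and CATATG before Neurod1. Among 32851 promoter windows of the same length, 66.2% hold CANNTG, 14.4% CAGATG and 3.46% CATATG. The windows of the other 5 members hold no CANNTG, among them both windows of Neurod4. A match describes letters only and shows no binding, and its absence from this window says nothing of the factor.

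Nhlh2 was the member with the clearest order of levels across groups. Its level was 149, 118 and 159 CPM in the 3 E10 libraries at 50 µm, 67.2 at E10 and 25 µm, 42.6 and 24.7 at E10 and 10 µm, 16.6 and 29.0 at E11 and 25 µm, 13.6 and 4.38 at E11 and 10 µm, and 16.3 at E12. The E10 libraries at 50 µm lay above every other library, and at 10 µm both E10 libraries lay above both E11 libraries without overlap. Nhlh1, its close relative, ran from 12.9 to 36.2 CPM at E10 and 50 µm and from 4.01 to 8.17 at E11 and 10 µm, with 18.5 at E10 and 25 µm, 12.1 and 8.87 at E10 and 10 µm, 11.2 and 10.4 at E11 and 25 µm and 6.31 at E12.

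Neurod1, which drives neuronal differentiation in cranial ganglia and later in endocrine and granule cells, was at 33.2, 41.9 and 43.8 CPM at E10 and 50 µm, 69.7 at E10 and 25 µm, and 35.3 and 21.1 at E10 and 10 µm. It was at 7.89 and 14.3 CPM at E11 and 25 µm, 25.3 and 5.83 at E11 and 10 µm, and 12.6 at E12. The highest E11 library thus reached into the E10 range at 10 µm, while at 25 µm both E11 libraries lay below the single E10 library.

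**Figure D1:**
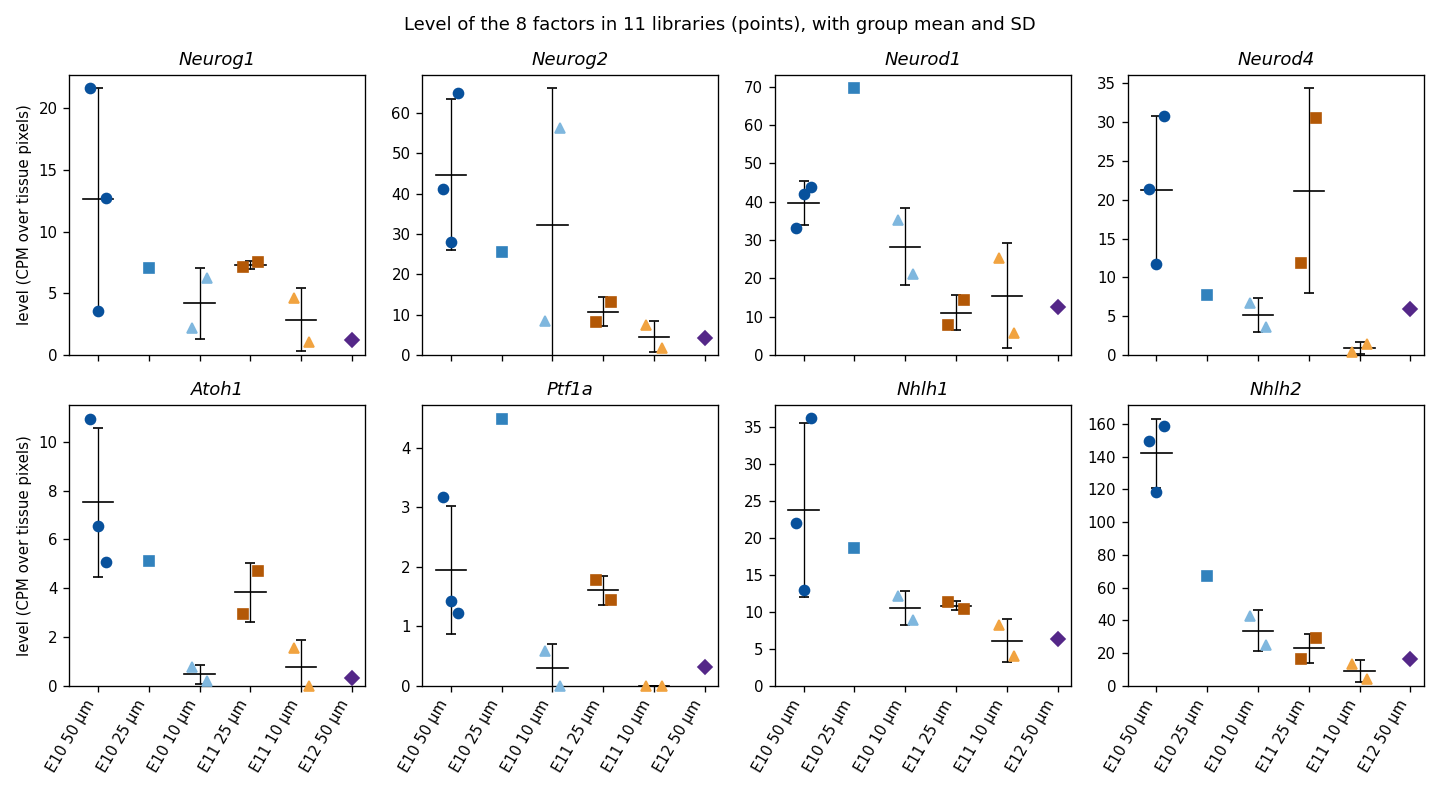
Level of each factor in CPM over tissue pixels (y axis, a separate scale per panel) in the 6 groups of stage and pixel width (x axis). Points are libraries, the horizontal bar is the group mean and the whisker is 1 SD for groups of 2 or 3 libraries. Nhlh2 falls from 118 to 159 CPM at E10 and 50 µm to 16.3 at E12, and Neurod4 reaches 11.7 to 30.7 CPM at E10 and 50 µm and at E11 and 25 µm.

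Neurod4, a relative of Neurod1 that acts in differentiating neurons of brain, retina and spinal cord, followed another order. Its level was 21.4, 11.7 and 30.7 CPM at E10 and 50 µm and 11.8 and 30.5 at E11 and 25 µm, against 7.67 at E10 and 25 µm, 6.67 and 3.58 at E10 and 10 µm, and 0.389 and 1.46 at E11 and 10 µm. At E12 it was at 6 CPM. The E11 libraries at 25 µm therefore overlapped those of E10 at 50 µm and lay above every library at 10 µm.

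Neurog1, which specifies sensory neurons of cranial and spinal ganglia, was at 21.6, 3.58 and 12.7 CPM in the 3 E10 libraries at 50 µm, 7.04 at E10 and 25 µm, 2.17 and 6.23 at E10 and 10 µm, 7.11 and 7.55 at E11 and 25 µm, 4.67 and 1.09 at E11 and 10 µm and 1.23 at E12. Both E11 libraries at 25 µm lay above all 4 libraries at 10 µm. Atoh1 was at 10.9, 6.55 and 5.08 CPM at E10 and 50 µm, 5.12 at E10 and 25 µm and 2.96 and 4.69 at E11 and 25 µm. In the 4 libraries at 10 µm Atoh1 did not exceed 1.56 CPM, and the second E11 library at 10 µm had none of its counts, which allows up to 1.09 CPM. It was at 0.308 CPM, 2 counts, at E12.

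Ptf1a, the rarest member, was at 3.17, 1.43 and 1.22 CPM at E10 and 50 µm, 4.48 at E10 and 25 µm on 7 counts, 1.78 and 1.43 at E11 and 25 µm, and 0.308 at E12 on 2 counts. At 10 µm it was at 0.583 CPM in the first E10 library and had no count in the other 3, which allows up to 0.566 CPM in the second E10 library and 1.17 and 1.09 CPM in the E11 libraries. The first E10 library at 50 µm held 36 of the 97 Ptf1a counts and the other 10 held 0 to 13 each. The limits cover counting error only.

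Neurog2, which specifies motor neurons, interneurons and cortical neurons, needs its place on the grid to be read. Its level was 41.2, 28.01 and 65.0 CPM at E10 and 50 µm, 25.6 at E10 and 25 µm, and 8.50 and 56.2 at E10 and 10 µm. It was 8.29 and 13.3 CPM at E11 and 25 µm, 7.39 and 1.82 at E11 and 10 µm, and 4.31 at E12. In 4 of the E10 libraries, a large part of these counts lay in 1 row of the grid, row 39, a single channel of the second barcode set. Row 39 held 101 of 468 Neurog2 counts in the first E10 library at 50 µm, 89 of 235 in the second, 255 of 691 in the third, and 102 of 298 in the second E10 library at 10 µm.

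These shares were 5.86, 5.51, 12.4 and 13.1 times the share of all counts that fell in the row. The E10 library at 25 µm had 5 of 40 Neurog2 counts there, and the first E10 library at 10 µm and the E11 and E12 libraries had 0 to 2. No other member with at least 10 counts in row 39 exceeded 3 times its expected share there. Other genes did: of 10545, 9233, 10337, 3334 and 7672 genes with at least 100 counts, 23, 12, 57, 21 and 43 had at least 20 counts and at least 4 times their expected counts in row 39 in the 3 E10 libraries at 50 µm, the E10 library at 25 µm and the second at 10 µm. In all of these but the second at 50 µm, no other row held more such genes. The cause was not tested.

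**Figure D2:**
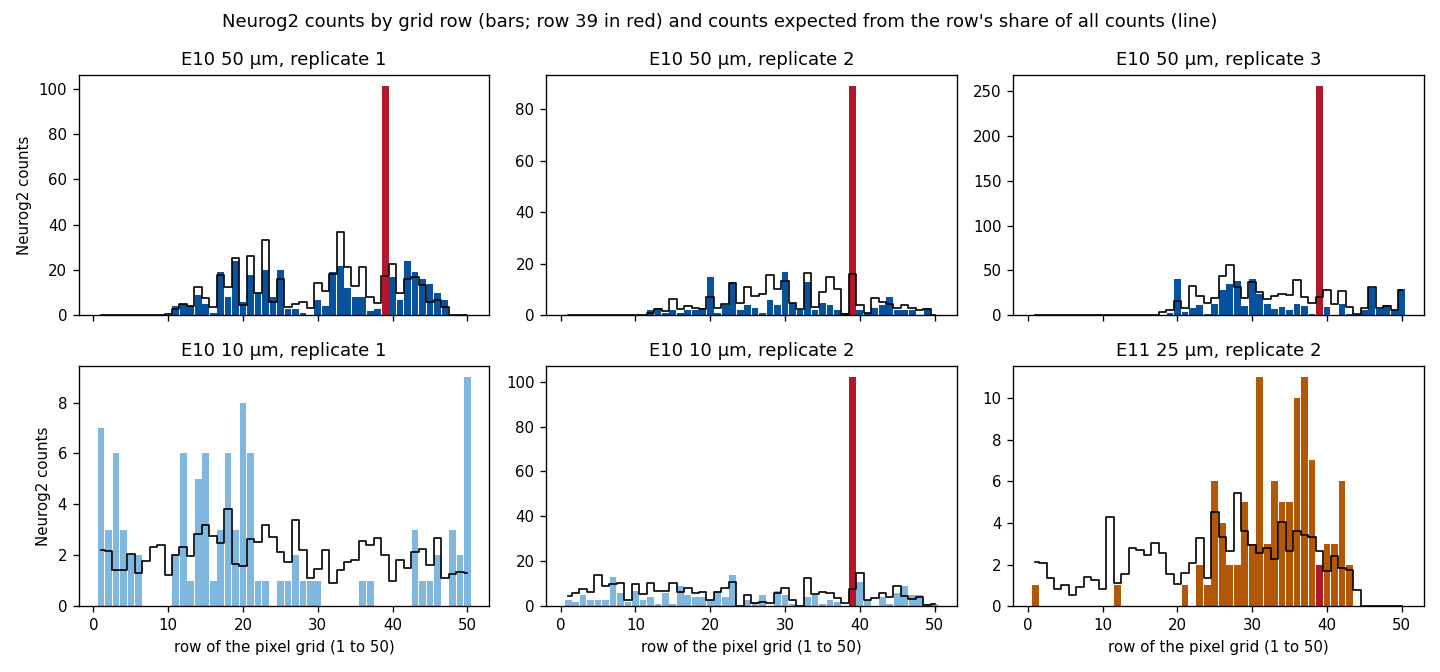
Neurog2 counts (y axis, a separate scale per panel) by row of the pixel grid (x axis) in 6 of the 11 libraries. Bars are counts, row 39 is red, and the line is the count expected from the row's share of all tissue counts. Row 39 towers over its neighbours in 4 E10 libraries, with 101, 89, 255 and 102 counts, and is empty in the first E10 library at 10 µm.

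Without row 39 the Neurog2 level was 33.6, 18.7 and 42.3 CPM in the E10 libraries at 50 µm, 22.8 at 25 µm and 8.67 and 37.98 at 10 µm, and 8.12, 13.4, 7.47, 1.85 and 4.18 CPM in the E11 and E12 libraries. The group means were 31.5 ± 11.9 CPM (SD, n = 3) at E10 and 50 µm, 23.3 ± 20.7 (SD, n = 2) at E10 and 10 µm, 10.7 ± 3.71 (SD, n = 2) at E11 and 25 µm and 4.66 ± 3.98 (SD, n = 2) at E11 and 10 µm. The 3 libraries at E10 and 50 µm still lay above all E11 and E12 libraries.

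The first comparison asked whether the level of the factors differed between E11 and E10, as the mean of the contrasts at 10 and 25 µm. Nhlh2 was lower at E11 by 1.64 on the log2 scale (difference -1.64, SE 0.34, edgeR, Benjamini-Hochberg adjusted p = 0.0224) and Neurod1 by 1.67 (-1.67, SE 0.40, adjusted p = 0.0451). These 2 of 8 members passed the threshold of 0.05, and across all 18233 genes tested 1.67% were called lower. Neurog2 stood at -1.94 (SE 0.71, edgeR adjusted p = 0.155), Nhlh1 at -0.69, Neurod4 at -0.40, Neurog1 at -0.13 and Atoh1 at 0.14, none past the threshold, and Ptf1a had no count at E11 and 10 µm. The median over the members was -1.17, or -0.69 without Ptf1a, beside 0.05 over all genes.

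Both calls depended on single libraries. Without the second E11 library at 10 µm, the one that stood apart, 0 of 8 members passed, with Nhlh2 at -1.35 (edgeR adjusted p = 0.0505) and Neurod1 at -1.32 (0.0568). Without the first E10 library at 10 µm Neurog2 was called in their place. The only library then left at E10 and 10 µm held 102 of its 298 Neurog2 counts in grid row 39. The Nhlh2 call was also lost without the first E10 library at 10 µm (adjusted p = 0.0542) or the first E11 library at 25 µm (0.102). The Neurod1 call was lost without any of these 3, without any E10 library at 50 µm, without the second library of E10 at 10 µm or of E11 at 25 µm (adjusted p 0.0505 to 0.17 over these), and without grid row 39 (0.0515).

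At 10 µm alone, where each stage has 2 libraries, Nhlh2 was lower at E11 by 1.94 on the log2 scale (difference -1.94, SE 0.46, edgeR, Benjamini-Hochberg adjusted p = 0.0373). It was 1 of 8 members called lower, against 0.773% of all genes. Neurog2 was at -2.85 (SE 0.97, edgeR adjusted p = 0.157) and Neurod4 at -2.47 (SE 0.80, adjusted p = 0.115), and Neurod1 at -0.90 (adjusted p = 0.357). Nhlh1 was at -0.82, Neurog1 at -0.54 and Atoh1 at 0.48, and Ptf1a had 7 counts at E10 and 0 at E11. Progenitor markers were lower in 8 of 8 cases (median -1.29) and neuron markers in 9 of 9 (median -1.33), and their part was not tested. The member median was -1.42, or -0.90 without Ptf1a, beside -0.01 over all genes. Without the first E11 library at 10 µm Neurod1 passed as well, at -2.26 (edgeR adjusted p = 0.0258). Leaving out the second E11 library at 10 µm brought Nhlh2 to -1.35 (edgeR adjusted p = 0.218), the first E10 library at 10 µm to -1.52 (0.175, with Neurog2 called instead), and any E10 library at 50 µm or the second E11 library at 25 µm to an adjusted p of 0.0502 to 0.061.

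Between E12 and E10 at 50 µm all 8 members were lower in the single E12 library, whose spread was taken to be that of the other groups. Nhlh2 fell by 3.16 on the log2 scale (SE 0.57, edgeR, Benjamini-Hochberg adjusted p = 0.0153), from 142 ± 21.2 CPM (SD, n = 3) to 16.3. It was the 1 of 8 members past the threshold, and 0.214% of all genes were called lower. Atoh1 was at -4.56 (SE 1.22, edgeR adjusted p = 0.0804), Ptf1a at -2.62 (adjusted p = 0.397), and Neurog2, Neurog1, Nhlh1, Neurod4 and Neurod1 lay between -3.40 and -1.70 with adjusted p of 0.128 to 0.24. Pooled over libraries, Atoh1 was 24.9 times as high at E10 on 233 counts against 2 (95% counting interval 6.83 to 207), and Ptf1a 6.53 times on 61 counts against 2 (1.73 to 55.1).

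The member median at E12 was -2.89, beside -0.04 over all genes, and 7 of 8 members had an unadjusted edgeR p below 0.05, as had 5.23% of all genes in the same direction. DESeq2 called 4 members and 1% of all genes lower, and edgeR without a filter on low counts 7 members and 1.29%. The Nhlh2 call was lost without the first or the third E10 library at 50 µm (edgeR adjusted p = 0.0526 and 0.0538), and 3 members passed without either E11 library at 10 µm (1.31% of all genes lower each time) and 2 without either E10 library at 10 µm (0.319% and 0.328%).

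Markers of nervous tissue as a whole had the same sign as most members in the stage contrasts. Atoh1 was on the other side at E11 against E10, at 0.14 in the mean contrast and 0.48 at 10 µm. In the mean E11 against E10 contrast 8 of 8 progenitor markers and 9 of 9 neuron markers had negative values (medians -0.67 and -1.22), and Sox2 itself was at -0.88 (edgeR adjusted p = 0.476) and Tubb3 at -1.02 (0.167). At E12 against E10 the medians were -3.26 and -1.58, again negative for 8 of 8 and 9 of 9, with 0 called by edgeR in either list, while the mesenchyme genes Col1a1 (2.56, adjusted p = 0.0155) and Col1a2 (2.24, 0.0435) rose. The 5 liver markers were higher in both contrasts. The part of these marker levels in the members' differences was not tested.

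Channel width was compared within each stage. The same 50 by 50 grid covers a smaller field at a narrower width, and each library is another section. Width and the part of the embryo covered therefore cannot be told apart in these contrasts. The heart markers, for example, summed to 12.3 to 1920 CPM at E10 and 10 µm, against 571 to 1058 at E10 and 50 µm. At E10 all 8 members were lower at 10 µm than at 50 µm, with a median of -1.78 beside -0.03 over all genes, and 5 had an unadjusted edgeR p below 0.05, as had 5% of all genes in this direction. None of 8 passed the Benjamini-Hochberg threshold in edgeR, and 0.104% of all genes were called lower. Atoh1 was at -3.75 (SE 0.80, edgeR adjusted p = 0.0892), Nhlh2 at -2.05 (SE 0.39, 0.072) and Neurod4 at -1.99 (SE 0.53, 0.132), while Ptf1a was at -2.36, Neurog1 at -1.58, Nhlh1 at -1.13, Neurod1 at -0.47 and Neurog2 at -0.43. DESeq2 and edgeR without a filter each called 3 members, beside 0.954% and 1.18% of all genes, and leaving out the first or the second E11 library at 10 µm gave 2, Atoh1 and Nhlh2, beside 0.662% and 0.691%. The neuron markers were lower as well, 9 of 9 with a median of -1.32, and the progenitor markers 6 of 8 with a median of -0.30; their part was not tested.

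At E11 Neurod4 was lower at 10 µm than at 25 µm by 4.57 on the log2 scale (difference -4.57, SE 0.76, edgeR, Benjamini-Hochberg adjusted p = 0.00922). The pooled counts were 5 against 294, a ratio of 24.5 (95% counting interval 10.4 to 76.1). Neurod4 was 1 of 8 members called lower, against 0.455% of all genes, and the call was lost without the second E11 library at 25 µm (-3.78, edgeR adjusted p = 0.144), which holds 234 of the 294 counts. Without the first E11 library at 10 µm Nhlh2 passed too (-2.46, adjusted p = 0.0357). The other members stood at -2.43 (Atoh1), -1.48 (Neurog1), -1.47 (Nhlh2), -1.37 (Neurog2) and -0.96 (Nhlh1), none past the threshold. The neuron markers were lower at 10 µm in 9 of 9 cases (median -1.31) and the progenitor markers in 7 of 8 (median -0.95), and their part was not tested. Ptf1a, with 20 counts at 25 µm and 0 at 10 µm, was at least 2.78-fold lower at 10 µm, taking 3 counts over the group as the floor. The median over members was -1.48, and -1.475 with Ptf1a at this bound, beside -0.03 over all genes, and Neurod1 alone was on the other side at 0.34 (edgeR adjusted p = 0.877). The stage difference at 10 µm minus that at 25 µm passed for no member, and Neurod4 came nearest (-4.13, SE 1.13, edgeR Benjamini-Hochberg adjusted p = 0.323).

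Few genes of the pathway lists were called by edgeR. In the mean E11 against E10 contrast, where 1.67% of all genes were called lower, 0 of 11 Notch genes, 0 of 3 E proteins and 0 of 4 Id inhibitors were called, and lists this short would hold few calls at that share. Among the 9 neuron genes 3 were called: Elavl4 (-1.69, edgeR adjusted p = 0.0331), Dcx (-1.25, 0.0363) and Stmn2 (-1.20, 0.0406) fell. Of 10 genes known as targets of neurogenic factors, 1 fell, Insm1 (-1.88, 0.032), which encodes a zinc finger factor of newborn neurons and endocrine cells. Among 4 genes listed for the Atoh1 lineage, Lhx2 fell (-2.57, edgeR adjusted p = 0.016), with Atoh1 itself at 0.14. Lhx2 was highest in the second E10 library at 10 µm (215.5 CPM), where Atoh1 had 1 count. A link of the Lhx2 level to Atoh1 was not tested. At 10 µm the E protein gene Tcf4 fell (-1.44, 0.0373). At E12 the Notch ligand gene Dll3 was the 1 of 11 Notch genes called (-3.21, 0.046).

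The share of pixels with a count depended on pixel depth and width. Nhlh2 was detected in 63.0%, 45.7% and 63.2% of tissue pixels at E10 and 50 µm, in 5.49% at E10 and 25 µm, in 12.5% and 4.98% at E10 and 10 µm, and in 0.622% to 8.84% of pixels in the E11 and E12 libraries. Thinned to 1000 counts per pixel, the shares at E10 and 50 µm became 12.8%, 9.80% and 12.9%, that at E10 and 25 µm 7.18%, those at E10 and 10 µm 3.59% and 2.23%, and those of E11 and E12 0.574% to 2.19%. Heart muscle should lack the members, and heart-rich pixels served as background. These were the 5% of pixels with the highest share of heart muscle counts, in the 9 libraries where Tnnt2 was at least 5 times as high there. Tnnt2 is 1 of the 6 genes that chose the pixels, so a section with little heart can pass this rule. The second E10 library at 10 µm, which passed, is such a section. The 6 heart markers summed to 12.3 CPM there, against 1920 CPM in the first. The median depth of the heart-rich pixels was 476.5 to 6881 counts per library, against 843.5 to 10659 in all tissue pixels. Nhlh2 was detected in 30 of 700 of them (4.29%) against 10.2% of all tissue pixels of those libraries, Neurod1 in 14 (2% against 5.72%), Nhlh1 in 8 (1.14% against 4.22%) and Neurod4 in 4 (0.571% against 3.61%). Neurog1 was detected in 8 (1.14% against 2.08%), and Atoh1 and Ptf1a in 1 each (0.143% against 0.971% and 0.385%). Neurog2 was detected in 21 (3% against 5.90%). Of these 21, 10 lay in the second E10 library at 10 µm, which gave 114 of the 700 pixels. The Neurog2 share there was 8.77% in the chosen pixels and 8.72% in all tissue pixels. As this section held little heart, these 2 shares cannot show the level of Neurog2 background in heart.

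Whether a factor shared pixels with the progenitor or the neuron gene was measured against pixels of the same library and the same depth. For each factor, Sox2 and Tubb3 counts in its positive pixels were divided by the counts expected from its negative pixels in the same 1 of 10 depth classes, in libraries with at least 20 positive pixels. Of 16 combinations, 6 passed a two-sided exact sign-flip permutation test over libraries after Benjamini-Hochberg adjustment. These were Neurog1 and Neurog2 with Sox2, and Neurod1, Neurod4, Nhlh1 and Nhlh2 with Tubb3, all above expectation. This list follows the threshold and does not divide the factors between the 2 genes. The mean log2 was 0.54 with Tubb3 and 0.38 with Sox2 for Neurog1, 0.48 and 0.52 for Neurog2, and 1.27 and 0.61 for Neurod4.

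Around Neurog2 the observed over expected ratio of Sox2 was 1.08, 1.23 and 1.05 at E10 and 50 µm, 1.29 at E10 and 25 µm, 1.20 and 1.01 at E10 and 10 µm, 1.46 and 1.60 at E11 and 25 µm, and 5.07 at E12. It was above 1 in all 9 libraries, by little at E10 and most at E12 (mean log2 0.52, SD 0.72, exact permutation adjusted p = 0.0156). Without row 39 the mean log2 was 0.57 with the same adjusted p. The E12 value is from 1 library and few counts. Without row 39 its 26 Neurog2 pixels held 24 Sox2 counts where 4.13 were expected. Sox2 was detected in 8.86% of the E12 tissue pixels, against 76.4%, 59.5% and 77.7% at E10 and 50 µm. Tubb3 was above its expectation in 8 of 9 libraries, with 0.74 times the expected counts in the second E10 library at 10 µm (mean log2 0.48, exact permutation adjusted p = 0.0536).

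For Neurog1 the Sox2 ratio ran from 1.05 to 1.71 and was above 1 in all 7 libraries (mean log2 0.38, SD 0.27, exact permutation adjusted p = 0.0417), while its Tubb3 ratio was above 1 in 6 of 7 (mean log2 0.54, adjusted p = 0.0556). With 7 libraries the smallest unadjusted p is 0.0156, so that leaving out any of them ended the Neurog1 call with Sox2 (adjusted p 0.0556 to 0.0833), and it stood at 0.05 when the E12 library, which gives Neurog1 no value, was left out of the family of tests. Hes5, a Notch target of progenitors, was above expectation in 7 of 7 libraries around Neurog1 (mean log2 0.56) and in 8 of 9 around Neurog2 (0.59). This was not particular to the Neurog genes. Hes5 was above expectation in 6 of 7 libraries around Neurod4 (0.70) and in 9 of 10 around Nhlh1 (0.33) and Nhlh2 (0.31). Around Atoh1 it was above in 4 of 4 (0.32) and around Neurod1 in 6 of 10 (0.30).

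**Figure D3:**
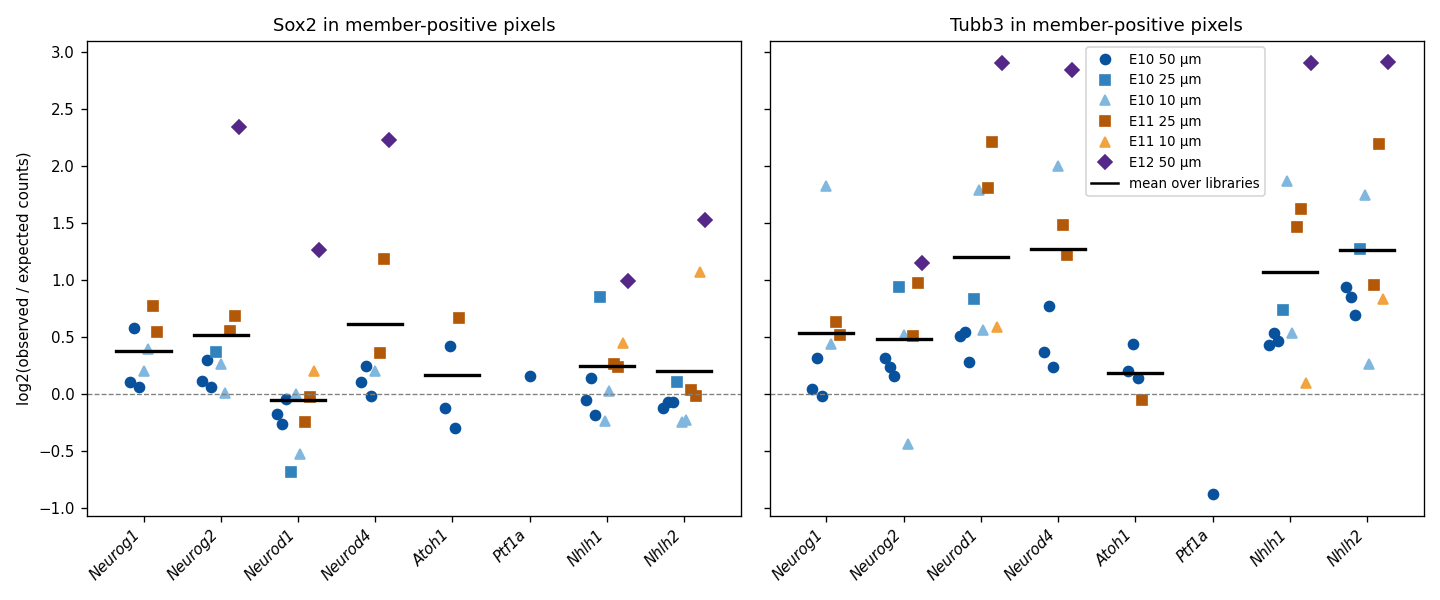
Counts of Sox2 (left) and Tubb3 (right) in pixels positive for each factor, as log2 of observed over expected counts at equal pixel depth (y axis). Points are libraries with at least 20 positive pixels, bars the mean over libraries, and 0 means no more than expected. All 10 libraries lie above 0 for Neurod1, Nhlh1 and Nhlh2 with Tubb3, and the E12 library reaches 2.84 to 2.91 there and for Neurod4.

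Around Neurod1 the Tubb3 ratio was 1.42, 1.46 and 1.22 at E10 and 50 µm, 1.78 at E10 and 25 µm, 3.46 and 1.48 at E10 and 10 µm, 3.50 and 4.63 at E11 and 25 µm, 1.50 at E11 and 10 µm and 7.49 at E12. All 10 libraries were above 1 (mean log2 1.20, SD 0.90, exact permutation adjusted p = 0.0104), whereas Sox2 was below 1 in 7 of 10 (mean log2 -0.05, adjusted p = 0.92). The lowest Sox2 ratio, 0.622, was in the E10 library at 25 µm, where none of 81 Neurod1 pixels held both Sox2 and Tubb3.

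Nhlh2 gave Tubb3 ratios of 1.20 to 7.51 and Nhlh1 of 1.07 to 7.48, above 1 in 10 of 10 libraries each (mean log2 1.27 and 1.07, exact permutation adjusted p = 0.0104 for both). Neurod4 gave 1.17 to 7.16 in 7 of 7 libraries (mean log2 1.27, exact permutation adjusted p = 0.0417). Its Sox2 ratio was also above 1 in 6 of 7 libraries, with 2.27 in the second E11 library at 25 µm and 4.68 at E12 (mean log2 0.61, adjusted p = 0.0556). Neurod4 thus had the highest mean of the 8 members for Sox2 and one of the 2 highest for Tubb3, each over its own libraries. The means of the members rest on different libraries, 7 for Neurod4, 9 for Neurog2 and 10 for Neurod1 and Nhlh2. Their order is therefore not a comparison within the same libraries. Leaving out any of its 7 libraries brought the Tubb3 value to an exact permutation adjusted p of 0.0556 to 0.0833.

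Other neuron genes were high around the same 4 factors. Elavl3, an RNA-binding protein gene of young neurons, was above expectation in every library with a value around Neurod1 (mean log2 1.19, 10 libraries), Nhlh1 (1.13, 10), Nhlh2 (1.24, 10) and Neurod4 (1.29, 7). Stmn2, a gene of growing axons, was above it in 10 of 10 libraries around Neurod1 (1.46) and Nhlh2 (1.59). Isl1, a factor of motor and sensory neurons, was above it in 9 of 10 around Neurod1 (1.20) and Nhlh1 (1.06) and in 4 of 9 around Neurog2 (-0.16). Around Neurog1, Stmn2 was above expectation in 3 of 7 libraries and Isl1 in 2 of 7, and around Atoh1 Stmn2 was above it in 1 of 4. Genes of other tissues were low in most libraries: Col3a1, a collagen gene of mesenchyme, was below expectation in every library with a value around Neurog1, Neurog2, Neurod4, Atoh1 and Nhlh2, and in 9 of 10 around Neurod1 and 8 of 10 around Nhlh1. Tnnt2 of heart muscle was below expectation in 9 of 9 libraries around Neurog2 (-0.81), but above it in 3 of 7 around Neurog1, 4 of 10 around Neurod1 and 3 of 10 around Nhlh2. Epcam, an epithelial gene, was above it in 0 of 7 libraries around Neurog1 and Neurod4 and in 3 of 10 around Neurod1. No test was run on these 10 partner genes.

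Atoh1 had 4 libraries with 20 positive pixels and Ptf1a 1, too few for the permutation test to pass. The Atoh1 ratios were 0.917, 1.34, 0.813 and 1.58 for Sox2 and 1.15, 1.36, 1.10 and 0.967 for Tubb3, on both sides of 1. In the first E10 library at 50 µm the 30 Ptf1a pixels held 1.12 times the expected Sox2 and 0.545 times the expected Tubb3 counts.

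A single index, the log2 ratio for Tubb3 minus that for Sox2, placed each factor between the 2 genes. Its mean was 1.25 for Neurod1 (10 of 10 libraries above 0, exact permutation adjusted p = 0.0156), 1.07 for Nhlh2 (9 of 10, 0.0156), 0.82 for Nhlh1 (8 of 10, 0.026) and 0.66 for Neurod4 (7 of 7, 0.0312). It was 0.16 for Neurog1 (2 of 7 above 0, adjusted p = 1), 0.02 for Atoh1 (3 of 4) and -0.04 for Neurog2 (5 of 9, adjusted p = 1). The Neurog1 mean rested on the first E10 library at 10 µm, with an index of 1.62 against -0.27 to 0.05 in the other 6, and was -0.09 without it.

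The calls for Neurod1 and Nhlh2 were kept without row 39 and without any 1 library. Those for Nhlh1 and Neurod4 were lost without row 39 (exact permutation adjusted p = 0.0625 for both). The Nhlh1 call was also lost without the first E10 library at 10 µm, the third at 50 µm, either E11 library at 25 µm or the E12 library (0.0521 each), and the Neurod4 call without any of its 7 libraries (0.0547 to 0.0625). Between members, 28 differences in the index were tested within libraries and none passed. Neurog2 was below Neurod1 in 9 of 9 libraries (mean difference -1.38, exact permutation adjusted p = 0.0547) and below Nhlh2 in 9 of 9 (-1.25, 0.0547), and 10 differences had an unadjusted p below 0.05.

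**Figure D4:**
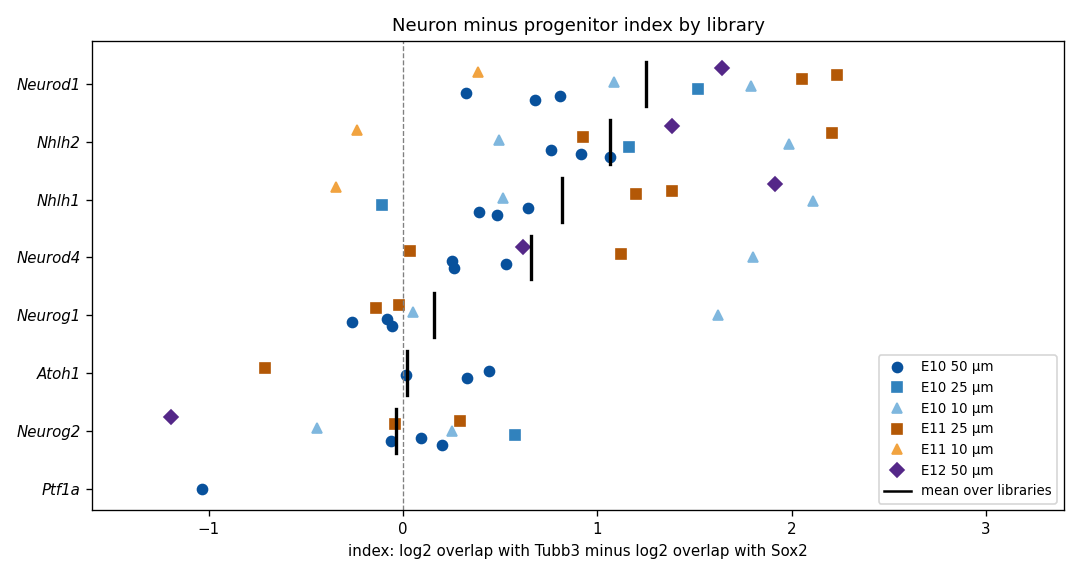
Index of each factor (x axis, log2 ratio for Tubb3 minus log2 ratio for Sox2), with factors ordered by their mean (y axis). Points are libraries, the vertical bar is the mean, and the dashed line marks equal overlap with both genes. The means run from -0.04 for Neurog2 to 1.25 for Neurod1, and Ptf1a has 1 library, at -1.03.

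The levels of Sox2 and Tubb3 were also read by distance on the grid, as a description. Averaged over 10 libraries, Tubb3 was at 2.40 times its library level in Neurod1 pixels, 1.29 times in the pixels next to them and 0.787 times 2 steps away, and it was higher in the Neurod1 pixels than next to them in 10 of 10 libraries. Around Nhlh2 the Tubb3 level fell from 2.27 to 1.10 and 0.731 times over 9 libraries. Sox2 around Neurod1 was instead higher in the pixels next to it (1.28 times) than in the Neurod1 pixels (1.13 times), and this order held in 8 of 10 libraries. Around Neurog2, Sox2 fell from 1.76 to 1.43 and 0.976 times, with Sox2 higher in the Neurog2 pixels than next to them in 9 of 9 libraries and higher than 2 steps away in 8 of 9. The medians over libraries were 1.69, 1.16 and 0.813 times for Tubb3 around Neurod1, and 2.08, 1.13 and 0.658 for Tubb3 around Nhlh2. For Sox2 they were 1.01 in the Neurod1 pixels and 1.1 next to them, and 1.29, 1.07 and 0.875 around Neurog2. These levels are not adjusted for pixel depth.

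The share of pixels with either gene, which is not matched for depth, is given for 3 sections chosen after their values were seen. At E12, 51.0% of the 51 Neurod1 pixels held Tubb3 without Sox2, 13.7% both, 9.80% Sox2 alone and 25.5% neither, against 16.5%, 3.45%, 5.41% and 74.7% of all tissue pixels. In the second E11 library at 25 µm, 45.8% of the 83 Neurog2 pixels held both genes, 34.9% Sox2 alone, 9.64% Tubb3 alone and 9.64% neither, against 12.8%, 19.9%, 10.6% and 56.7% of all tissue pixels, with a median of 7830 counts in the Neurog2 pixels against 4343.5 in all. In the second E10 library at 10 µm the difference was small: 16.7% of the 198 Neurog2 pixels held both genes, 21.7% Sox2 alone and 16.2% Tubb3 alone, against 12.3%, 19.2% and 17.3% of all tissue pixels.

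The factors also shared pixels with each other. Pixels with both members of a pair were compared with the number expected at equal depth, and 11 of 28 pairs passed the exact sign-flip permutation test after adjustment, all with more shared pixels than expected. The 4 factors with a high index formed 6 pairs, and all 6 passed: Neurod4 with Nhlh1 (mean log2 1.45), Neurod1 with Neurod4 (1.29), Neurod1 with Nhlh1 (1.13), Nhlh1 with Nhlh2 (1.07), Neurod1 with Nhlh2 (1.00) and Neurod4 with Nhlh2 (0.94), with exact permutation adjusted p of 0.0182 to 0.0398. Summed over 10 libraries, 328 pixels held both Neurod1 and Nhlh1 where 222 were expected, and 531 held both Nhlh1 and Nhlh2 where 412 were expected.

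The remaining 5 pairs joined a Neurog gene to one of these: Neurog1 with Nhlh1 (0.87), Neurod1 (0.61) and Nhlh2 (0.33), and Neurog2 with Nhlh1 (0.59) and Neurod1 (0.38), with exact permutation adjusted p of 0.0273 to 0.0398. Neurog1 and Neurog2 themselves shared 165 pixels against 141 expected (mean log2 0.47, adjusted p = 0.125). Pairs with Atoh1 had values in 4 libraries, which cannot pass the test: it met Nhlh1 and Nhlh2 more often than expected in 4 of 4 libraries (0.44 and 0.41), and Neurog1, Neurog2 and Neurod1 in 2, 1 and 1 of 4 (-0.10, -0.17 and -0.11). Ptf1a and Neurod1 shared 2 pixels in the 1 library with a value, where 11.7 were expected.

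The number of pairs past the threshold was sensitive to the libraries. It was 3 without the first E10 library at 10 µm, the second or the third at 50 µm, the second E11 library at 25 µm or the E12 library, 4 without the first at 50 µm, 5 without the second E10 library at 10 µm or the first E11 library at 25 µm, and 10 without row 39. In the exact sign-flip permutation test 7 libraries give a smallest unadjusted p of 0.0156 and 6 give 0.0312. The pairs with 7 values that passed are at that limit.

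**Figure D5:**
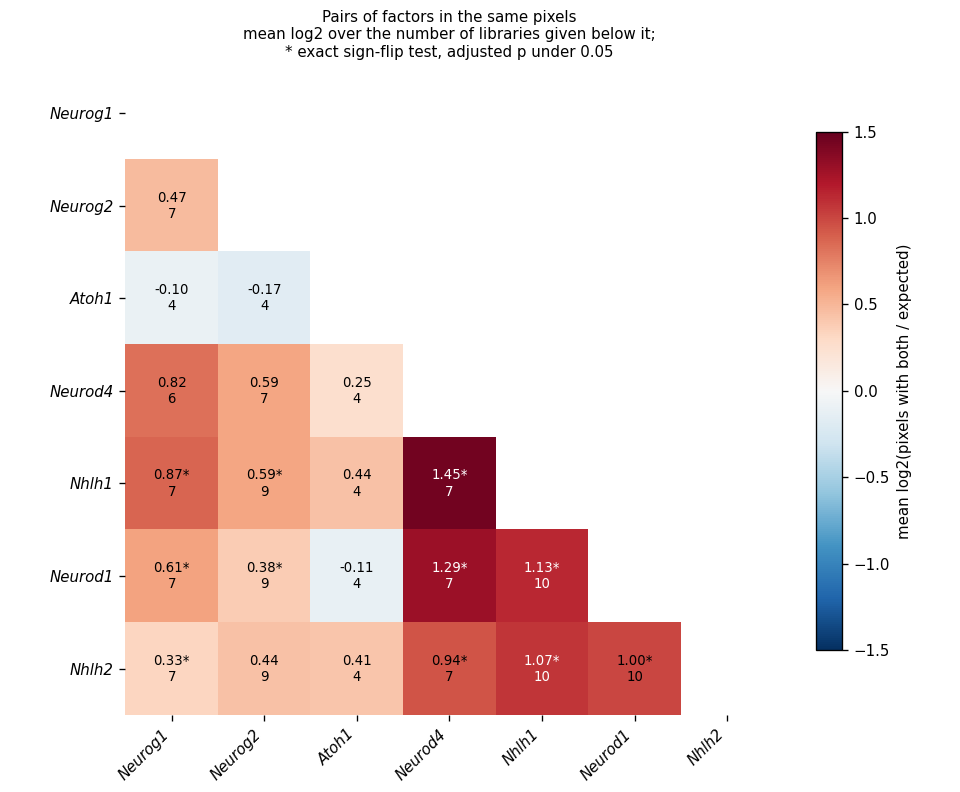
Mean log2 of pixels with both factors over the number expected at equal depth, for the 21 pairs among 7 factors (rows and columns); Ptf1a is left out because it has 1 library. The number under each value is the number of libraries, and an asterisk marks an exact sign-flip permutation adjusted p below 0.05. The 4 factors Neurod1, Neurod4, Nhlh1 and Nhlh2 form the block of high values, 0.94 to 1.45.

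No member was seen in 5% of the pixels of all 4 libraries at 50 µm, the E12 library included, so the genes most like each member were taken from E10 alone, a choice made after seeing the data. Across the pixels of the 3 E10 libraries at 50 µm, the genes whose pattern was most like each factor were listed among 11248 genes by their mean Pearson correlation, a description over libraries that share a grid and a depth range. Nhlh2 was most like Dcx (0.46), a microtubule gene of migrating neurons, Tuba1a (0.44) and Tubb3 (0.43). Neurod1 was most like Elavl4 (0.23), Stmn2 (0.23) and Dcx (0.22), and Nhlh1 like Nhlh2 (0.21), Dcx (0.18) and Tubb3 (0.17). Neurod4 was most like the glycine receptor gene Glra1 (0.19), Tuba1a (0.19) and the glutamate transporter gene Slc1a2 (0.18).

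For Neurog2 the list turned on row 39. With the row it was Acat3 (0.30), Hnrnpa1 (0.26) and Xpo5 (0.25), and without it Pax6 (0.16), a progenitor factor, Wnt7b (0.15), a signalling protein gene of the ventricular zone, and Btbd17 (0.14). Neurog1, Atoh1 and Ptf1a were not seen in 5% of pixels of all 3 libraries and were given no list.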

How the data were processed

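The members and gene lists were chosen with earlier results of these data known. Transcript libraries of sectioned mouse embryos were deposited as 1 table each, with pixels in rows and genes in columns, and the values are raw counts, as deposited by the authors, with no normalization found in the values. Per the labels' protocols, frozen sections were barcoded in tissue, and libraries were sequenced as paired reads. Per the submitters' processing notes CASAVA 1.8.2 and the build name GRCh38 were used. That build is of another species, and the annotation and read counter are not given in the sources used here. The 4 antibody-tag libraries were not used.

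Tissue pixels were those with a total of at least 0.1 of the library's 95th percentile. Their counts were summed per library and tested with edgeR 4.0.16 (quasi-likelihood, TMM, filterByExpr, 6 group means, 11 libraries, 18233 genes tested) with Benjamini-Hochberg adjustment and a threshold of 0.05. The SE was taken from the fold change and the test statistic. Groups of 1 library were assumed to vary like the others. The common dispersion of 0.101 corresponds to a coefficient of variation of 31.8% between libraries, and libraries of 1 group differed by more than sampling noise (chi-square per degree of freedom 24.6 to 70). Only the E11 titles carry numbers, and no shared embryo is given, so libraries were not treated as pairs.

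Overlap used pixels with at least 1 count of a factor, 10 classes of pixel depth, and libraries with at least 20 such pixels, with a two-sided exact sign-flip permutation test over libraries. Families held 16 overlaps, 8 indices, 28 index differences and 28 pairs, and pairs used a pseudocount of 0.5. All 8 members entered every comparison for which they had values, partner genes came from a fixed list, pathway genes were named where called (1 gene list is not reported here), and like genes were the 3 with the highest mean correlation of log2(counts per 10000 + 1). Scripts ran in Python 3.11.15 (numpy 2.4.6, scipy 1.17.1) and R 4.3.3 and were tested on simulated data. Alternatives were DESeq2 1.42.0, RLE factors, no filter, other pixel and depth classes, each library left out, a replicate block at E11, and, chosen after seeing the data, the grid without row 39.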

Additional observations from a re-analysis of the deposited data

How the results depend on the processing

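Of 156 recomputed counts of calls, 99 stayed within 1.5 times the reported count, and of 1507 single values 1248 kept direction and side of the threshold and 39 changed sign. DESeq2 called 3 members lower at 10 against 50 µm in E10, 2 for E11 against E10 at 10 µm and 4 at E12. The shares of all genes it called lower were 0.954%, 1.45% and 1%. Without a filter edgeR called 3, 3 and 7 members, beside 1.18%, 2.54% and 1.29% of all genes. At 10 against 25 µm in E11 it called 2, beside 1.08%. A stricter tissue limit or the grid without row 39 left 1 member in the mean E11 contrast, beside 1.54% and 1.61% of all genes called lower. With each library left out in turn, the calls ranged from 0 to 2 in the 4 contrasts other than E12 and from 0 to 3 at E12, from 4 to 6 for overlaps, 2 to 4 for the index and 3 to 11 for pairs. With at least 50 positive pixels, 2 counts per positive pixel or no 10 µm library, fewer libraries remained and overlaps and pairs gave 0 calls each, and the index gave 2, 0 and 0. Overlaps gave 10 without depth classes, and the index 2 without row 39. The replicate block at E11 kept 1 call, Neurod4 (-4.60), and changed no other; the number in their titles does not establish pairs, and same-numbered libraries had correlated deviations of 0.14 over 10287 genes.

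Signs changed only for values past no threshold, except Neurog2 with Neurod1 pairs (-0.34 at 2 counts). With each library left out, Neurod1 at 10 against 25 µm ranged from -1.01 to 1.03, Neurog2 at 10 against 50 µm from -2.38 to 0.44, Atoh1 from -4.98 to 1.86 at 10 µm and from -2.59 to 0.86 in the mean E11 contrast, and Neurog1 from -1.85 to 0.39 and -0.79 to 0.33 there. Atoh1 was at -0.23 and -0.19 in these contrasts with the stricter tissue limit and at -0.07 in the mean without row 39. The overlap of Atoh1 with Sox2 ranged from -0.00024 to 0.32 and was -0.13 with 50 pixels, -0.08 at 2 counts and -0.04 without row 39; Neurod1 with Sox2 ranged from -0.19 to 0.02 and was 0.11 without depth classes. At 2 counts Neurog1 with Tubb3 was -0.11, Nhlh1 with Sox2 -0.02 and Nhlh2 with Sox2 -0.16. The index ranged from -0.12 to 0.26 for Atoh1, -0.09 to 0.23 for Neurog1 and -0.11 to 0.11 for Neurog2. It was -0.05, -0.33 and -0.11 for Neurog1 with 50 pixels, 2 counts and no 10 µm library, and 0.06 and 0.05 for Neurog2 with the first of these. Pairs of Atoh1 without depth classes were 0.18 with Neurod1, 0.19 with Neurog1 (-0.22 to 0.06 with libraries left out) and 0.21 with Neurog2, and -0.75 with Neurod4 at 2 counts. The cause was not tested. Depth limits Atoh1 and Ptf1a most, with 308 and 97 counts in all.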

Other observations

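Neurog3, a proneural relative outside the 8 members that is best known from the endocrine pancreas, was lower at 10 µm than at 25 µm at E11. It was at 31.0 and 36.7 CPM in the E11 libraries at 25 µm and at 0.389 and 0.365 CPM in those at 10 µm (-6.53 on the log2 scale, edgeR, Benjamini-Hochberg adjusted p = 0.0261). The pooled counts were 439 against 2, a ratio of 91.5 with a 95% counting interval of 25.2 to 758. Width cannot be told apart here from the part of the embryo covered. Neurog3 was detected in 102 and 137 pixels of the E11 libraries at 25 µm, 5.99% and 9.11% of tissue pixels, and Sox2 was at 2.24 and 2.51 times its library level in those pixels, without adjustment for depth. Neurod1, which acts after Neurog3 in endocrine cells, was at 0.523 and 1.84 times its library level there. Neurog3 was listed in the other 7 libraries at up to 4.98 CPM.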
